A study of Mus musculus with 4 samples.

Results

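The regions described here are the promoters of stand-alone long noncoding RNA (lncRNA) genes of the mouse. They were chosen from GENCODE vM21 as the genes annotated as lincRNA, antisense or processed_transcript on chromosomes 1 to 19 whose transcription start site (TSS) lies more than 5 kb from the TSS of every protein-coding gene. This rule gave 6860 of the 51229 genes annotated on these chromosomes, of which 4587 were lincRNA, 1863 antisense and 410 processed_transcript genes. Each promoter was taken as 1 kb on either side of the TSS. The rule reads only the annotation, and it was set with earlier results of these data known. The windows were not all separate, since 334 of the lncRNA genes had a window that overlapped the window of another, in 166 groups. The distance was measured to the TSS of the gene, and 302 of the lncRNA genes still had the start of an alternative protein-coding transcript within 1 kb.

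H2A.Z was mapped by ChIPseq on chromatin cut with micrococcal nuclease, and open chromatin by ATACseq, in livers of male C57Bl/6 mice that were 8 to 12 weeks old and fed a normal diet. In the Uhrf1hepKO liver (Uhrf1 fl/fl;Alb:Cre), Cre under the albumin promoter deletes Uhrf1 in hepatocytes, while the other cells of the liver keep the gene. The WT liver carried the same floxed alleles without Cre, so both genotypes share the floxed Uhrf1 alleles. Both assays drew on these 2 livers, 1 of each genotype, and gave 4 libraries. Lists of peaks do not show whether the Uhrf1 exons were deleted, so the genotype rests on the labels. The data are the lists of peaks called in each library, with 10758 peaks in WT ATACseq, 10972 in Uhrf1hepKO ATACseq, 51702 in WT H2A.Z and 47391 in Uhrf1hepKO H2A.Z. Read totals are not in the lists, and the even steps between H2A.Z folds correspond to a background of 3.10 reads per base in WT and 3.30 in Uhrf1hepKO. A promoter without a peak is therefore one where none was detected at this depth. A single library per condition leaves no spread between replicates to test against, and the 95% Wilson intervals given with shares cover counting error only. The label of the tissue could be checked little at this distance. Of 11 hepatocyte genes, Apoa2 had an ATACseq peak within 1 kb of its TSS in WT, Alb had one in Uhrf1hepKO, and 0 had an H2A.Z peak. Markers of neurons, muscle, blood and endothelium had 0 peaks in the 4 lists. Of 4 markers of bile ducts and stellate cells, Col1a1 had an ATACseq peak in both livers, and Krt19, Epcam and Lrat had 0 peaks.

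Long noncoding RNAs are transcribed by RNA polymerase II, mostly spliced, and not translated into known proteins, and their promoters range from CpG islands to sequence with few CpGs. Where an lncRNA starts next to a coding gene, both promoters can share one stretch of open chromatin, and the distance in the rule was chosen to leave such pairs out. H2A.Z is a variant of histone H2A that is placed on the nucleosomes beside the nucleosome-poor start of genes, and ATACseq finds DNA that a transposase can reach. UHRF1 recruits the maintenance DNA methyltransferase to newly replicated CpGs, and H2A.Z is known to be scarce where DNA is methylated.

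The sequence under a few peaks shows how much these promoters differ in CpGs, and each is referred to again with its values. All sequences are GRCm38, read 5′ to 3′ on the strand of the gene, with every CpG in capitals, and peaks wider than 300 bases are shown by their central 300. The first pair are accessible in both livers and rich in CpGs. Snhg5 is a host gene of small nucleolar RNAs (minus strand, chr9:88522917-88523216, 37 CpGs) and Gm33195 had the highest fold of the WT ATACseq peaks at these promoters (plus strand, chr13:43864545-43864844, 27 CpGs).
Snhg5: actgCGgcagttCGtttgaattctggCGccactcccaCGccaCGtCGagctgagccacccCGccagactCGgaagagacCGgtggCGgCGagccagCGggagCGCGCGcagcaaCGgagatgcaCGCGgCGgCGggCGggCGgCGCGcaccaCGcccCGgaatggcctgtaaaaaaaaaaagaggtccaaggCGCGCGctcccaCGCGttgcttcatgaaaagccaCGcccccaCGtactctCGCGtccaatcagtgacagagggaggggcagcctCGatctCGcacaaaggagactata
Gm33195: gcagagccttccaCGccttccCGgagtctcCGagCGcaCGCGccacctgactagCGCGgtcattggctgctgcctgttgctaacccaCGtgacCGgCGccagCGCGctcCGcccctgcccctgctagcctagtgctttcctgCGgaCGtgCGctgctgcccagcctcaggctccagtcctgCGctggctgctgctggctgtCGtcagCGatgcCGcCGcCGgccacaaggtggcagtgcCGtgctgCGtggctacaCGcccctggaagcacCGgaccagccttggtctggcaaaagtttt
The next is the promoter of Kcnq1ot1, an imprinted antisense RNA that is transcribed from within Kcnq1, shown because its Uhrf1hepKO ATACseq peak had the highest fold in that list among these promoters. The sequence is that of its WT ATACseq peak (minus strand, chr7:143296546-143296766, 5 CpGs).
Kcnq1ot1: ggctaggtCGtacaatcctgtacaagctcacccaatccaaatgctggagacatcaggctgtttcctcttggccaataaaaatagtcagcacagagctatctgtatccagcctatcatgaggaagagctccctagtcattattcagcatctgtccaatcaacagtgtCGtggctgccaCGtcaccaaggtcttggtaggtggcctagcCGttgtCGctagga
The 3 ATACseq peaks that follow were each called in 1 liver and are shown because they have the highest folds of that kind. Those of Gm49709 (plus strand, chr16:90349756-90349895, 5 CpGs) and 2900072N19Rik (minus strand, chr2:92058575-92058708, 12 CpGs) were called in WT and that of 4930553P18Rik (plus strand, chr6:86004397-86004520, 4 CpGs) in Uhrf1hepKO.
Gm49709: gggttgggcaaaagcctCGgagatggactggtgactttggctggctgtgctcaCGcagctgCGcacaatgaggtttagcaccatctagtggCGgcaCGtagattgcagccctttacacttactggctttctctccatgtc
2900072N19Rik: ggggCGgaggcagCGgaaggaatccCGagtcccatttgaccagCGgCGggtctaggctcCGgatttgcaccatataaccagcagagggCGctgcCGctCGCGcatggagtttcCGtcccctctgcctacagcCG
4930553P18Rik: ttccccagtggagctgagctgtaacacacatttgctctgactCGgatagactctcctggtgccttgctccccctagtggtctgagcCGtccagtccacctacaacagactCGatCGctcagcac
The last 3 are H2A.Z peaks at promoters without an ATACseq peak. They are the WT peak of Neat1, the RNA that builds paraspeckles (minus strand, chr19:5845718-5845821, 4 CpGs), the WT peak of Gm5524, where 0 CpGs lie in the central 300 bases (plus strand, chr1:27883270-27883569), and a peak of Gm47771 that was called in Uhrf1hepKO and not in WT (minus strand, chr10:17659404-17659703, 2 CpGs).
Neat1: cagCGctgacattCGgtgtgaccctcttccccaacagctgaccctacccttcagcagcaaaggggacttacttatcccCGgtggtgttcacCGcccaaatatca
Gm5524: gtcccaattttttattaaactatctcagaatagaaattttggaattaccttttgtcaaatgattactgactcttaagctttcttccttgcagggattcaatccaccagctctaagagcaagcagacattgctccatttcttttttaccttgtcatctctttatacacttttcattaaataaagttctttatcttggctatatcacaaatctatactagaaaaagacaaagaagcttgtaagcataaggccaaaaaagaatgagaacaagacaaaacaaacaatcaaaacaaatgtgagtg
Gm47771: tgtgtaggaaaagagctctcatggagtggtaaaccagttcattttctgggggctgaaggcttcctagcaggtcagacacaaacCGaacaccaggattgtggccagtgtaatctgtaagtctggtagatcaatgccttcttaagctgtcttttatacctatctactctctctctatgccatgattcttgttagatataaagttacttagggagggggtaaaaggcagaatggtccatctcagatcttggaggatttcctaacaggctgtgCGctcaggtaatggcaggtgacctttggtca

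Most stand-alone lncRNA promoters had no called peak. A WT ATACseq peak was found at 235 of the 6860 promoters (3.43%, interval 3.02 to 3.88%) and a Uhrf1hepKO ATACseq peak at 233 (3.40%, interval 2.99 to 3.85%), while the share over all annotated genes was 13.8% and 12.7%. H2A.Z occupied 702 promoters in WT (10.2%, interval 9.54 to 10.97%) and 675 in Uhrf1hepKO (9.84%, interval 9.16 to 10.6%), against 24.9% and 24% of all genes. Protein-coding genes had a WT ATACseq peak at 27.4% of their promoters (interval 26.8 to 28.1%) and a WT H2A.Z peak at 47.4% (interval 46.7 to 48.1%). The 2015 lncRNA genes of the same types that start within 5 kb of a coding TSS were close to the coding genes, with 26.2% (interval 24.3 to 28.1%) and 43.7% (interval 41.5 to 45.8%). For both assays the intervals of the stand-alone lncRNAs lay below those of the other groups.

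Of the 6860 promoters, 868 had a peak in at least 1 list (12.7%, against 27.7% of all genes) and 5992 had none. The most frequent combination was H2A.Z in both livers without an ATACseq peak, at 370 promoters, or 5.39%, where all genes had 9.07%. Among promoters with a peak it made up 42.6%, against 32.7% for all genes. Peaks in all 4 lists were found at 118 promoters, or 1.72%, where all genes had 9.35%. Accessibility without H2A.Z was found at 25 promoters that had a WT ATACseq peak alone, 29 that had a Uhrf1hepKO ATACseq peak alone and 24 that had both. These 78 were 24.5% of the 319 promoters with an ATACseq peak in either liver (interval 20.1 to 29.5%), where all genes had 9.87% (interval 9.25 to 10.5%).

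**Figure D1:**
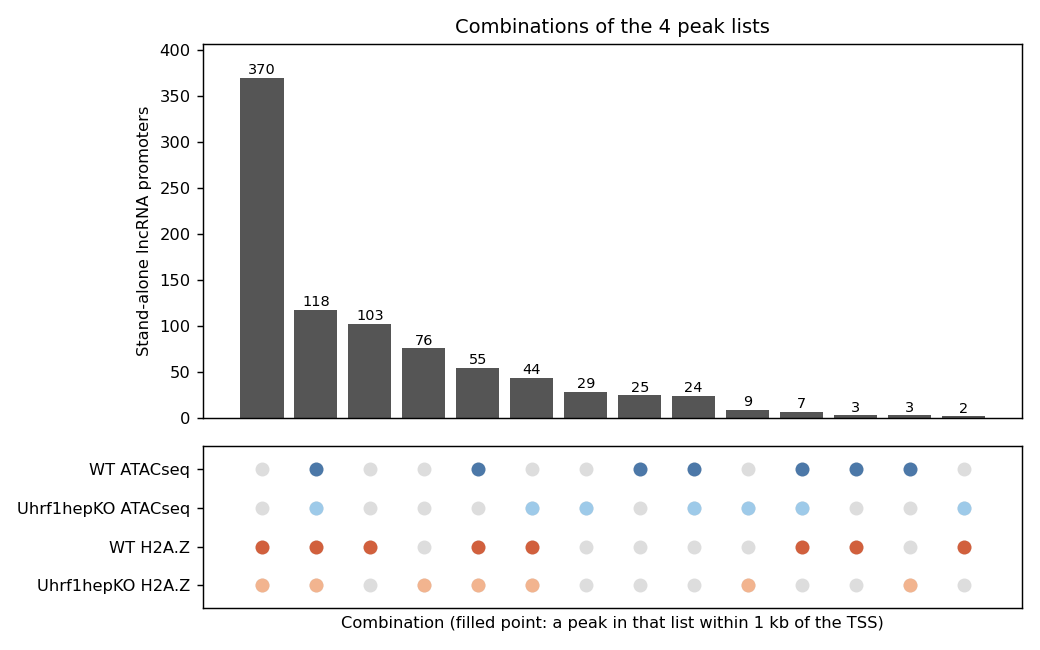
Number of stand-alone lncRNA promoters (y axis) with each combination of peaks in the 4 lists, ordered by number. Filled points under a bar mark the lists that had a peak within 1 kb of the TSS, and H2A.Z in both livers without an ATACseq peak, at 370 promoters, is the largest bar.

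Promoters with peaks held more CpGs around the TSS than those without. In the 1 kb centred on the TSS, the median number of CpGs was 12 at stand-alone lncRNAs and 43 both at protein-coding genes and at lncRNAs near a coding TSS. It was 50 at the 118 promoters with peaks in all 4 lists, 16 at the 549 with H2A.Z peaks alone, 14 at the 78 with ATACseq peaks alone and 11 at those without a peak. The share with a WT ATACseq peak was 0.759% (interval 0.385 to 1.49%) at promoters with 5 CpGs or fewer, 4.82% (interval 3.64 to 6.35%) at those with 21 to 40, and 31.0% (interval 26.3 to 36.2%) at the 332 with over 40. For WT H2A.Z these shares were 3.98% (interval 2.96 to 5.34%), 18.9% (interval 16.5 to 21.4%) and 47.9% (interval 42.6 to 53.3%). The Uhrf1hepKO lists gave 26.5% (interval 22.0 to 31.5%) for ATACseq and 47.3% (interval 42.0 to 52.7%) for H2A.Z at promoters with over 40 CpGs.

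Promoters in the same class of CpG number still differed between lncRNAs and coding genes. CpG numbers were not matched within a class, and the class of over 40 has no upper bound. Among promoters with over 40 CpGs, 46.4% of those of protein-coding genes had a WT ATACseq peak (interval 45.4 to 47.3%) and 73.2% had a WT H2A.Z peak (interval 72.4 to 74.1%), both above the intervals of the stand-alone lncRNAs. With 21 to 40 CpGs the coding shares were 19.05% (interval 17.6 to 20.5%) and 44.7% (interval 42.9 to 46.6%). With 5 CpGs or fewer the groups were close, at 1.01% (interval 0.687 to 1.49%) and 4.13% (interval 3.41 to 4.99%) for the coding genes. Of the 2919 lncRNA promoters with 10 CpGs or fewer, 143 had a WT H2A.Z peak (4.90%, interval 4.17 to 5.74%) and 29 had a WT ATACseq peak (0.993%, interval 0.693 to 1.42%), with 127 and 31 in Uhrf1hepKO. Coding genes in this class had 6.33% (interval 5.66 to 7.08%) and 1.35% (interval 1.049 to 1.73%) in WT. Over the whole class the intervals thus overlapped. With 6 to 10 CpGs, WT H2A.Z shares were 5.42% (interval 4.48 to 6.54%) at lncRNAs and 8.97% (interval 7.81 to 10.3%) at coding genes. With 11 to 20 CpGs these were 8.20% (interval 7.21 to 9.31%) and 16.5% (interval 15.2 to 17.99%). In both classes the H2A.Z intervals were apart. The WT ATACseq intervals overlapped with 6 to 10 CpGs. With 11 to 20 they were apart, at 2.13% (interval 1.64 to 2.75%) and 4.92% (interval 4.17 to 5.79%).

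**Figure D2:**
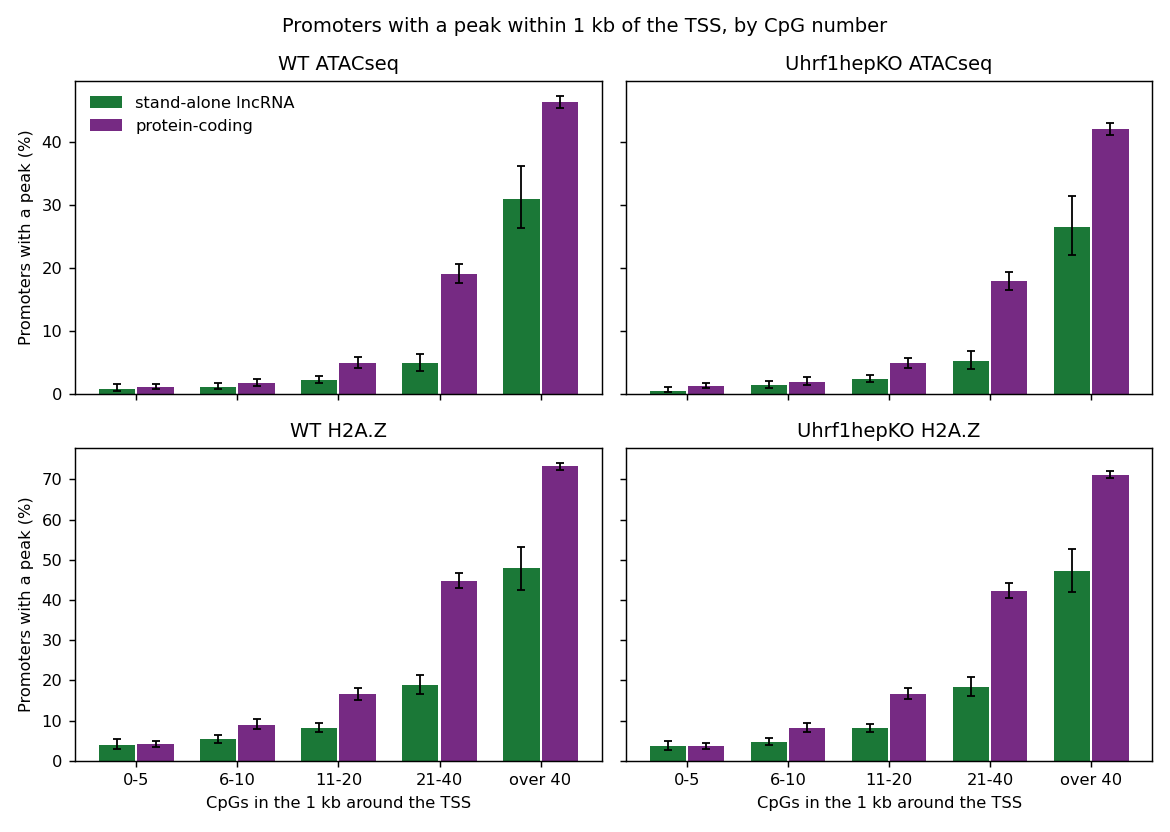
Share of promoters (y axis, %) that had a peak in the 1 kb on either side of the TSS by the number of CpGs in the 1 kb around the TSS (x axis), for stand-alone lncRNA genes (green) and protein-coding genes (purple) in the 4 lists. Bars are shares and lines are 95% Wilson intervals, and with over 40 CpGs the WT H2A.Z share was 47.9% at the lncRNAs and 73.2% at the coding genes.

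Other features of the annotation went with smaller differences. The 410 processed_transcript genes, among them Snhg5, Snhg8 and Dleu2, had a WT ATACseq peak at 9.51% (interval 7.04 to 12.7%) and a WT H2A.Z peak at 20.5% (interval 16.9 to 24.7%). For lincRNA genes these were 3.12% (interval 2.65 to 3.66%) and 10.1% (interval 9.21 to 10.95%), and for antisense genes 2.84% (interval 2.18 to 3.70%) and 8.43% (interval 7.25 to 9.78%). Genes with 5 or more annotated transcripts had H2A.Z in WT at 28.7% of promoters (interval 22.5 to 35.7%), against 8.60% (interval 7.87 to 9.40%) where a single transcript is annotated. A TSS in repeat-masked sequence was found at 20.2% of the stand-alone lncRNAs and 9.13% of protein-coding genes. WT H2A.Z occupied 5.62% of the lncRNA promoters that start in masked sequence (interval 4.52 to 6.95%) and 11.4% of the others (interval 10.6 to 12.3%).

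Promoters far from coding genes had fewer peaks. A WT H2A.Z peak was found at 14.4% of the 592 promoters with a coding TSS at 5 to 10 kb (interval 11.8 to 17.4%), at 11.4% of the 1292 with one at 50 to 100 kb (interval 9.76 to 13.2%), and at 3.58% of the 1341 with one over 200 kb away (interval 2.71 to 4.71%). The WT ATACseq shares at these distances were 5.91% (interval 4.28 to 8.11%), 3.95% (interval 3.02 to 5.15%) and 0.597% (interval 0.303 to 1.17%). At the limit set by the rule, the shares were close on both sides. At 5 to 6 kb, 8 of 125 promoters had a WT ATACseq peak and 16 had a WT H2A.Z peak, and among the lncRNAs left out at 4 to 5 kb, 8 of 146 and 19 did. The 302 promoters with an alternative coding start within 1 kb had a WT ATACseq peak more often, at 10.9% (interval 7.89 to 14.9%), and a WT H2A.Z peak at 19.9% (interval 15.8 to 24.7%).

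Where the nearest coding gene was one that the study lists as enriched in liver, the share with a peak did not stand apart from the rest. Of 50 such lncRNA promoters, 1 had an ATACseq peak in each liver (2%, interval 0.354 to 10.5%) and 6 had an H2A.Z peak in each (12%, interval 5.62 to 23.8%). The other 6810 promoters had 3.44% and 10.2% in WT and 3.41% and 9.82% in Uhrf1hepKO, all inside these intervals. The one with peaks in all 4 lists was 4632415L05Rik, whose nearest coding gene is Cp, which encodes the plasma copper protein ceruloplasmin, 62168 bp away. The other 5, with H2A.Z in both livers, were 4930480G23Rik near Ttpa, Gm45764 near Ces1h, Gm49736 and Gm46560 near Bdh1, and AC166748.2 near Slc22a29. These 6 were named after their values were seen.

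ATACseq peaks sat less closely around the TSS than at coding genes, as was also seen at lncRNAs near a coding TSS. Of the 213 WT ATACseq peaks at stand-alone lncRNAs with a centre within 1 kb of the TSS, the centre of 62 was at most 100 bp away (29.1%, interval 23.4 to 35.5%), and of the 4906 at protein-coding genes 53.2% did (interval 51.8 to 54.6%). In Uhrf1hepKO the shares were 34.4% (interval 28.3 to 41.1%) and 55.1% (interval 53.6 to 56.5%). Taken over all CpG numbers, H2A.Z summits were found on the TSS more often than at coding genes. In WT 147 of 1070 summits were within 100 bp (13.7%, interval 11.8 to 15.9%), against 6.69% at coding genes (interval 6.32 to 7.08%). At lncRNAs near a coding TSS the share was 8.95% (interval 7.65 to 10.5%). Most H2A.Z summits still lay to the sides, 458 upstream and 465 downstream by more than 100 bp in WT. At the stand-alone lncRNAs the positions did not follow CpG number in both livers. At lncRNA promoters with over 40 CpGs, 40.6% of WT ATACseq centres (interval 31.3 to 50.6%) were within 100 bp of the TSS, at those with 21 to 40 CpGs 18.2% were (interval 9.51 to 31.96%) and at those with 20 CpGs or fewer 20% were (interval 12.5 to 30.4%). In Uhrf1hepKO these were 34.5%, 34.7% and 32.9%, and for WT H2A.Z summits 10.99%, 16.4% and 13.5%. At coding promoters with 20 CpGs or fewer, 35.1% of WT and 33.5% of Uhrf1hepKO ATACseq centres were within 100 bp. The intervals overlapped those of the lncRNAs. With 21 to 40 CpGs the coding shares were 47.5% and 48.7%. With over 40 they were 54.1% and 56.2%, above the lncRNA intervals. For WT H2A.Z summits the coding shares were 12.5%, 10.4% and 5.49% from 20 CpGs or fewer to over 40. Only with 20 CpGs or fewer did the H2A.Z intervals overlap.

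**Figure D3:**
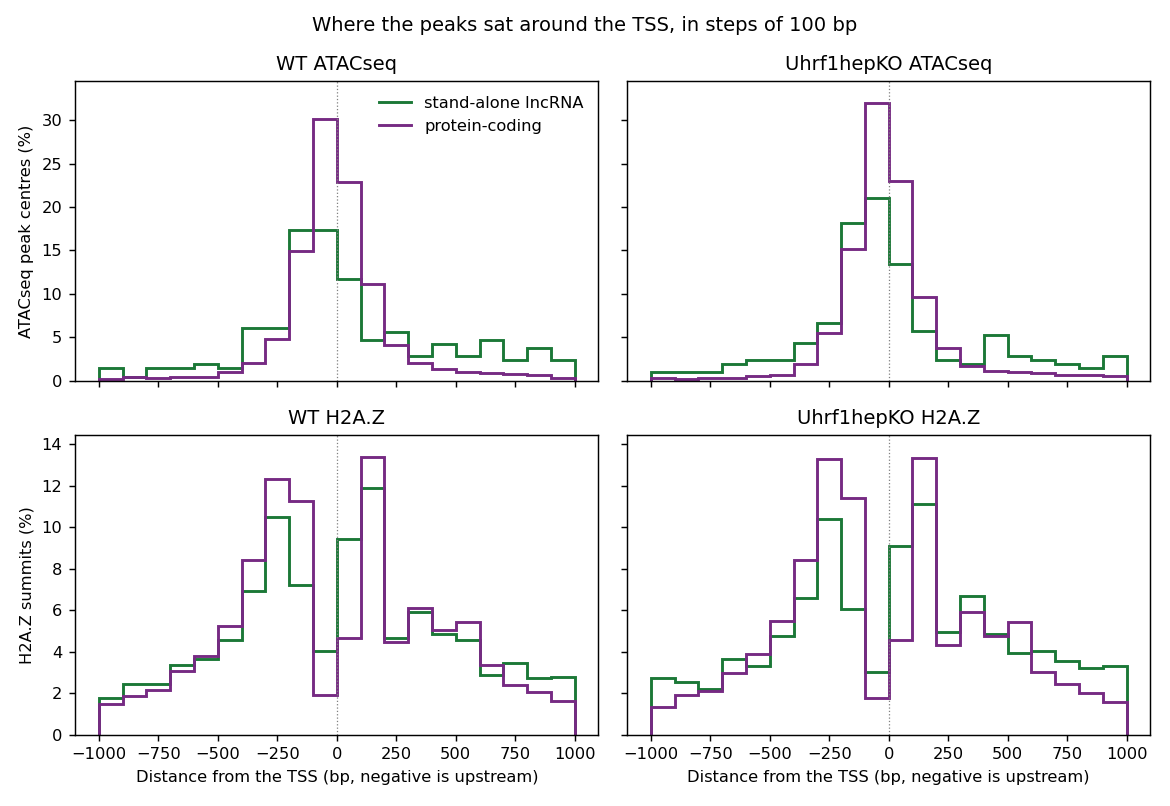
Distance of ATACseq peak centres (top) and H2A.Z summits (bottom) from the TSS (x axis, bp, negative upstream) as a percentage of those within 1 kb (y axis), in steps of 100 bp for stand-alone lncRNA genes (green) and protein-coding genes (purple). The lncRNA ATACseq peaks are spread more widely, and 29.1% of their WT centres lie within 100 bp of the TSS against 53.2% at coding genes.

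Accessible lncRNA promoters mostly carried H2A.Z, though taken over all CpG numbers less often than accessible coding promoters. Of the 235 with a WT ATACseq peak, 183 had a WT H2A.Z peak (77.9%, interval 72.1 to 82.7%), against 92.8% of coding promoters (interval 92.1 to 93.4%). In Uhrf1hepKO it was 171 of 233 (73.4%, interval 67.4 to 78.7%) against 90.7% (interval 89.9 to 91.5%). With over 40 CpGs the lncRNA share in WT was 89.3% (interval 81.9 to 93.9%) and with 20 CpGs or fewer 57.6% (interval 47.0 to 67.6%). The coding shares in these classes were 94.0% (interval 93.3 to 94.6%) and 65.6% (interval 58.7 to 71.9%). With 21 to 40 CpGs they were 89.4% at lncRNAs (interval 77.4 to 95.4%) and 91.8% at coding genes (interval 89.2 to 93.8%). Within each class the lncRNA and coding intervals overlapped. In the other direction, 183 of the 702 WT promoters with H2A.Z had a called ATACseq peak (26.1%, interval 23.0 to 29.4%). Of the coding ones 53.8% did (interval 52.8 to 54.7%), and these shares were not split by CpG number. Around the WT ATACseq peaks, H2A.Z summits lay on both sides of 105 of 225 peak centres (46.7%, interval 40.3 to 53.2%), on 1 side of 74 and on neither side of 46 (20.4%, interval 15.7 to 26.2%). At coding genes 7.78% had no summit within 1 kb (interval 7.07 to 8.57%). A window with an ATACseq peak held 1 such peak in 233 of 235 cases in WT, while 322 of the 702 windows with WT H2A.Z held 2 or more H2A.Z peaks.

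Of the 6 with the highest WT ATACseq folds among the 118 with peaks in all 4 lists, 5 are described here, Gm33195, AC122818.2, 2700016F22Rik, Gm6712 and 9430037G07Rik, all lincRNA genes of unknown function. Gm33195, on chromosome 13 and 79894 bp from the TSS of Cd83, had an ATACseq fold of 8.66 in WT and 7.90 in Uhrf1hepKO, and an H2A.Z fold of 7.80 and 6.51. Its ATACseq peaks covered the TSS in both livers, and H2A.Z summits lay 230 bp upstream and 271 bp downstream in WT. Fold is the enrichment over the local background that the peak caller reports, and since it is not scaled between libraries it ranks peaks within a list only.

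2700016F22Rik starts inside Ubr4 on the opposite strand, 280 bp from the start of an alternative Ubr4 transcript, and its ATACseq peaks with folds of 7.25 in WT and 5.35 in Uhrf1hepKO lay beside a single H2A.Z peak in an exon. AC122818.2 had ATACseq folds of 7.34 and 5.46 with 26 CpGs around its TSS, fewer than the other 4 except Gm6712 with 25. Gm6712, on chromosome 17, had ATACseq folds of 6.80 and 5.48 and H2A.Z folds of 13.4 and 15.1, the highest Uhrf1hepKO H2A.Z fold at these promoters. Of the 32-mers under its ATACseq peaks, 44.98% in WT and 47.2% in Uhrf1hepKO were found more than once in the genome. 9430037G07Rik, with ATACseq folds of 6.55 and 4.62, was alike in this, at 41.4% and 51.1%. The part of reads with several placements in these peaks was not tested.

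The highest WT H2A.Z fold, 17.99, was at Gm5165, which lies on chromosome 17 from 17234872 to 17266063 and ends before Gm6712 begins. Its H2A.Z fold was 14.9 in Uhrf1hepKO, and its ATACseq folds were 6.02 and 4.67. It was named after its values were seen.

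**Figure D4:**
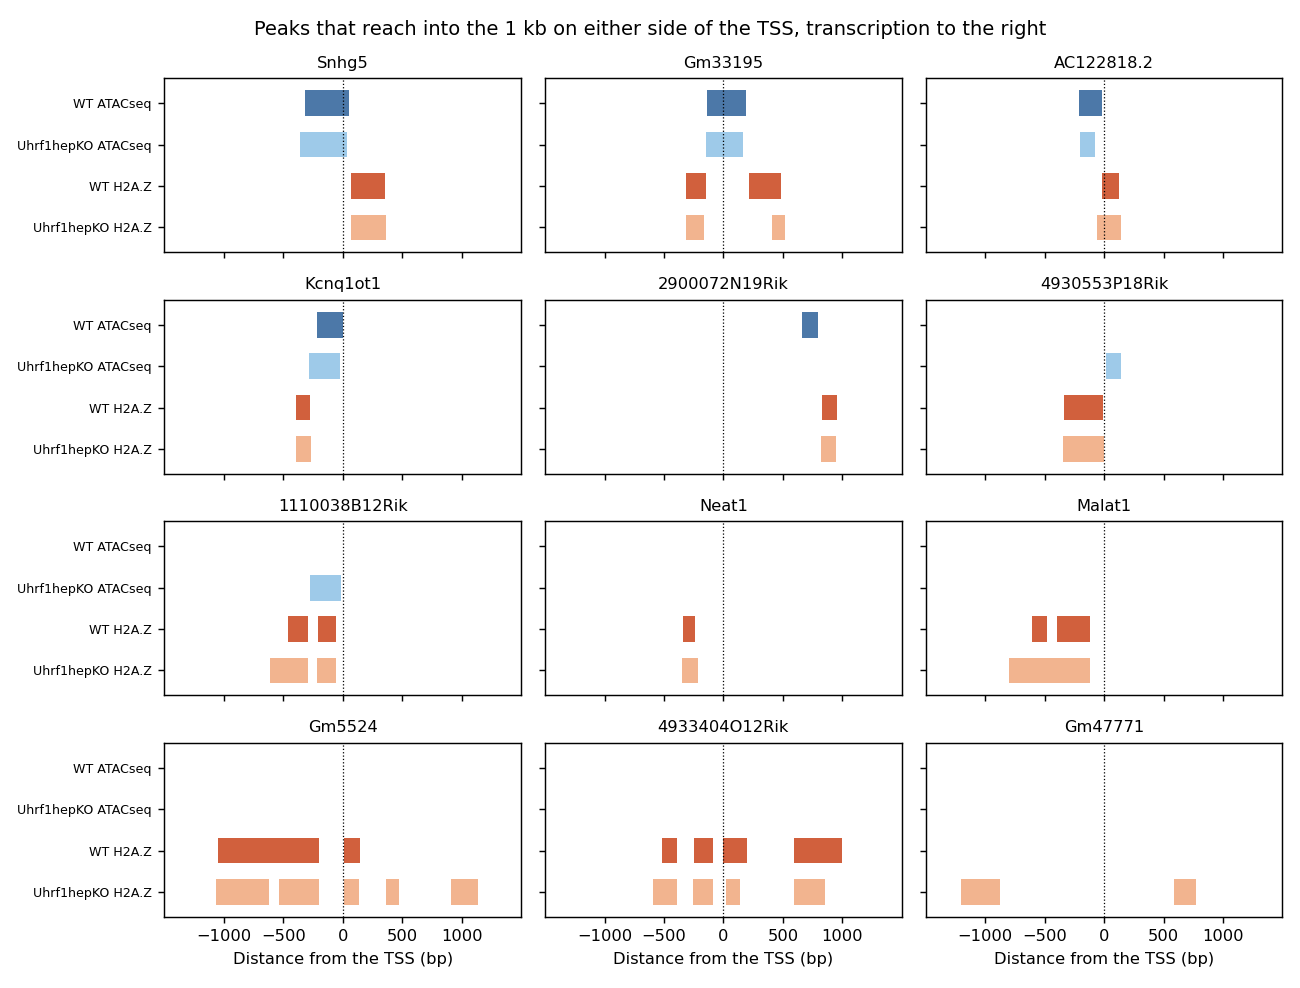
Peaks of the 4 lists (rows, coloured by list) around the TSS of 12 stand-alone lncRNA genes, drawn to scale in bp from the TSS (x axis, negative upstream) with transcription to the right. Gm33195 shows H2A.Z on both sides of an accessible TSS, AC122818.2 an H2A.Z peak over the TSS and an ATACseq peak just upstream, 4930553P18Rik and 1110038B12Rik an ATACseq peak in Uhrf1hepKO only, and the last 5 panels H2A.Z without ATACseq.

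The lists of both livers were alike in how many lncRNA promoters had a called peak, and differed in which. An ATACseq peak was called in both livers at 149 promoters, in WT only at 86 (1.25%, where all genes had 3.32%) and in Uhrf1hepKO only at 84 (1.22%, against 2.24%). An H2A.Z peak was called in both at 587, in WT only at 115 (1.68%, against 2.19%) and in Uhrf1hepKO only at 88 (1.28%, against 1.27%). Of the lncRNA promoters with an ATACseq peak in either liver, 46.7% had it in both, and of the coding promoters 67.0% did. For H2A.Z these were 74.3% and 89.7%. A peak called in 1 list may differ from the other list by little more than the calling threshold. Whether the differences lie between the genotypes, between any pair of livers or between libraries cannot be told apart with 1 liver of each.

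Promoters with a peak in 1 liver had fewer CpGs and lower folds than those with a peak in both, though more CpGs than the median of 12 over all stand-alone lncRNAs. The median number of CpGs was 42 where both livers had an ATACseq peak, 19 in WT only and 17.5 in Uhrf1hepKO only, while at coding genes it was 67, 66 and 59. For H2A.Z at the lncRNAs it was 22, 13 and 15. The median of the highest WT ATACseq fold per promoter was 4.79 at shared promoters and 3.94 at those of WT only, and in Uhrf1hepKO it was 4.41 and 3.86. Coding promoters had 4.97 and 4.03 in WT and 4.62 and 3.77 in Uhrf1hepKO. The WT H2A.Z folds were 6.58 and 4.63 and the Uhrf1hepKO folds 6.51 and 4.42 in the same order. A peak of the other liver lay outside the window but within 5 kb of the TSS at 7 of the 86 and 9 of the 84 for ATACseq, and at 29 of the 115 and 31 of the 88 for H2A.Z. These were 8.14% and 10.7% for ATACseq and 25.2% and 35.2% for H2A.Z. All genes were near these shares, with 4.99% and 9.67% for ATACseq and 28.9% and 34.2% for H2A.Z. At most promoters with an ATACseq peak in 1 liver, the H2A.Z calls were alike in both livers, as over all genes. Of the 86 with ATACseq in WT only, 55 had H2A.Z in both livers, 25 in neither, 3 in WT only and 3 in Uhrf1hepKO only. Of the 84 with ATACseq in Uhrf1hepKO only, 44 had H2A.Z in both, 29 in neither, 2 in WT only and 9 in Uhrf1hepKO only. Over all genes, 1703 had ATACseq in WT only, of which 1378 had H2A.Z in both livers and 235 in neither. Of the 1148 with ATACseq in Uhrf1hepKO only, 807 had H2A.Z in both and 237 in neither.

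The highest folds among the ATACseq peaks of WT only were at Gm49709 and Gm49708, a pair of genes that start on opposite strands of chromosome 16 and share 1 peak of 140 bp with a fold of 8.55. H2A.Z peaks were called there in both livers, with highest folds of 6.83 in WT and 4.69 in Uhrf1hepKO. Of the 32-mers under this ATACseq peak, 82.6% recur in the genome, as do 87.2% or more of those under the H2A.Z peaks, and the part of this in the call was not tested. The next, 2900072N19Rik, had a peak of 134 bp with a fold of 6.56 in its intron, 728 bp downstream of the TSS, in sequence without recurring 32-mers, and H2A.Z beside it in both livers with folds of 6.58 and 6.27. CT025671.1 had a peak with a fold of 6.02 and its centre 1050 bp downstream, and an H2A.Z peak with a fold of 5.36 in WT alone.

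Among the ATACseq peaks of Uhrf1hepKO only, 4930553P18Rik had the highest fold, 7.12, in a peak of 124 bp in its first exon, 78 bp downstream of the TSS. H2A.Z lay just upstream in both livers, with folds of 9.99 in WT and 8.37 in Uhrf1hepKO. Gm49595, antisense to Ppm1f, had a fold of 5.55 and no H2A.Z peak. 1110038B12Rik, 6767 bp from the TSS of the heat shock gene Hspa1b, had a fold of 5.17 with H2A.Z folds of 12.2 and 10.9, and A930006L05Rik, antisense to Zbtb38, had 5.14 with H2A.Z folds of 3.66 and 5.35. The 4 peaks held few recurring 32-mers, at most 0.873%.

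For H2A.Z, the promoters of WT only with the highest folds were 1700012C14Rik at 7.56, AU023070 at 6.83, AC091309.3 at 6.83 and Gm16565 at 6.58. Those of Uhrf1hepKO only were Gm47771 at 8.83, 4933440J02Rik at 6.74, Gm12069 at 6.74 and A430078I02Rik at 6.51. No ATACseq peak was called at these 8 promoters in either liver. Their H2A.Z summits mostly lay far from the TSS, for instance 1110 bp upstream at Gm47771 and 1205 bp upstream at AU023070, where the peak reaches into the window from outside, but at Gm12069 the peak covered the TSS.

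H2A.Z without an ATACseq peak in either liver was found at 549 of the 868 lncRNA promoters with any peak (63.2%, interval 59.99 to 66.4%). Among all genes with a peak the share was 42.2% (interval 41.3 to 43.0%) and among coding genes 38.6% (interval 37.7 to 39.6%). Of the promoters without an ATACseq peak in either liver, 4933404O12Rik had the highest WT H2A.Z fold, 12.2, with 12.8 in Uhrf1hepKO, and 4 H2A.Z peaks in each liver, the strongest of them with a summit 171 bp upstream of the TSS in WT. Gm29459 followed with 11.9 and 10.5, Gm13412 with 11.7 and 10.2, and Gm5524 with 11.2 and 9.99. Gm5524 is the CpG-poor example, with 1 CpG in the 1 kb around its TSS and 896206 bp to the nearest coding TSS, that of Gm597. Its widest WT peak covered 850 bp upstream of the TSS, where Uhrf1hepKO had 2 peaks, and another peak lay 78 bp downstream of the TSS in WT and 68 bp in Uhrf1hepKO.

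Counted over both livers, the most H2A.Z peaks in 1 window were 10, at Gm48857 and 2810405F17Rik with 5 in each liver. A count of 9 was found at 8 promoters, of which the first 2 by coordinate are named, Gm26901 with 5 in WT and 4 in Uhrf1hepKO and Gm12354 with 4 and 5. In single livers, 7 promoters had 5 or more in WT and 10 had 5 or more in Uhrf1hepKO. Gm48857, 2810405F17Rik and Gm26901 also had an ATACseq peak in both livers, and Gm12354 had none. At 2810405F17Rik the WT summits lay 494 and 92 bp downstream and 220, 621 and 1018 bp upstream of the TSS, so the peaks formed a row across the whole window. Recurring 32-mers made up 60.8% of the outermost WT peak of Gm26901 and 0% of the peak 64 bp downstream of its TSS.

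Among lncRNAs with known names, the hosts of small nucleolar RNAs, whose introns hold the snoRNAs that guide the modification of ribosomal RNA, were occupied most. Of 8 stand-alone snoRNA hosts, 7 had H2A.Z in both livers, 3 had an ATACseq peak in WT and 4 in Uhrf1hepKO. Over all stand-alone lncRNAs these shares were 8.56%, 3.43% and 3.40%. The 7 hosts with H2A.Z had over 40 CpGs around the TSS, except Snhg20 with 21. Of all stand-alone lncRNAs with over 40 CpGs, 47.9% had H2A.Z and 31.0% an ATACseq peak in WT. Snhg5 had folds of 6.46 in WT ATACseq, 5.09 in Uhrf1hepKO ATACseq, 8.53 in WT H2A.Z and 9.76 in Uhrf1hepKO H2A.Z, with its H2A.Z peak in the gene 149 bp downstream of the TSS. Snhg8 had 5.20, 4.65, 9.99 and 10.2, and Snhg15 had 5.37, 4.20, 6.83 and 5.81 in the same order. Snhg6 had an ATACseq peak in Uhrf1hepKO alone, at 3.61, and H2A.Z folds of 10.97 and 10.9. Snhg12, Snhg17 and Snhg20 had H2A.Z in both livers and no ATACseq peak, with WT folds of 5.12, 11.2 and 6.58. The exception was Snhg14, the long imprinted transcript of the Prader-Willi region, with 0 peaks.

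Of the 12 lncRNAs on a hand-made list of nuclear and chromatin RNAs, 8 had H2A.Z in both livers and 1, Kcnq1ot1, also had ATACseq peaks. Over all stand-alone lncRNAs 8.56% had H2A.Z in both livers. Malat1, an abundant RNA of nuclear speckles, had H2A.Z folds of 6.58 in WT and 8.83 in Uhrf1hepKO, over 275 and 132 bp in WT and over 680 bp in Uhrf1hepKO upstream of its TSS. Neat1 had folds of 5.12 and 4.42, with summits 290 and 299 bp upstream. Neither had an ATACseq peak in the window. Trp53cor1, a p53 target beside Cdkn1a, had 6.09 and 6.27, and Pvt1, the neighbour of Myc, had 6.34 and 6.97 with H2A.Z on both sides of its TSS. Lncpint, another p53 target, had 3.41 and 3.95, Pantr2 4.39 and 5.81, and 2900097C17Rik, the mouse counterpart of NORAD, 10.2 and 7.90. Airn, Halr1, Hotair and Ptgs2os2 had 0 peaks.

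Kcnq1ot1 was the single one of 8 stand-alone imprinted lncRNAs with a peak, a share near the 12.7% over all stand-alone lncRNAs. Airn, H19, Meg3, Mirg, Nctc1, Nespas and Snhg14 had 0. Kcnq1ot1 had a peak in all 4 lists, as did 1.72% of all stand-alone lncRNAs. Its ATACseq fold was 5.45 in WT and 8.73 in Uhrf1hepKO, the highest of that list at these promoters, with centres 107 and 155 bp upstream of the TSS, and its H2A.Z folds were 4.88 and 5.81 with summits 328 and 331 bp upstream.

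Hosts of miRNAs were occupied at 4 of 9, where 12.7% of all stand-alone lncRNAs had a peak in at least 1 list. Mir155hg had H2A.Z across its TSS in both livers, with folds of 6.58 in WT and 5.58 in Uhrf1hepKO. Dleu2 had an ATACseq peak over its TSS in WT alone, at 3.68, and H2A.Z folds of 6.09 and 7.20. Mir17hg, host of a cluster of miRNAs that promote growth, had an ATACseq peak in Uhrf1hepKO alone, at 3.45 with a q-value of 0.0541, and Mir99ahg had an H2A.Z peak in WT alone, at 4.14. Of 10 lncRNAs with roles in development and differentiation, 5 had a peak. Lockd, downstream of Cdkn1b, had ATACseq in WT alone, at 4.28, and H2A.Z folds of 7.31 and 7.90, and Chaer1, known from the heart, had H2A.Z folds of 7.31 and 5.35. Hnf4aos, antisense to the hepatocyte regulator Hnf4a, had a WT ATACseq peak with a fold of 3.67 whose centre was 882 bp downstream of its TSS, and no H2A.Z. Bvht and Carmn, which lie near each other, each had a peak in Uhrf1hepKO alone, H2A.Z at 6.51 for Bvht and ATACseq at 3.68 for Carmn. Pluripotency-associated transcripts, named for their expression in embryonic stem cells, had H2A.Z at 4 of 23 (Platr1, Platr4, Platr19 and Platr22) and 0 ATACseq peaks. Over all stand-alone lncRNAs 10.2% had H2A.Z and 3.43% an ATACseq peak in WT.

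Over the 6 lists together, 28 of 66 stand-alone lncRNAs had a peak in at least 1 list and 38 had none. The counts by list were 7 in each ATACseq list, 24 in WT H2A.Z and 23 in Uhrf1hepKO H2A.Z. Over all stand-alone lncRNAs 12.7% had a peak, but the lists were put together by hand from well-studied genes and their counts were not tested.

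**Figure D5:**
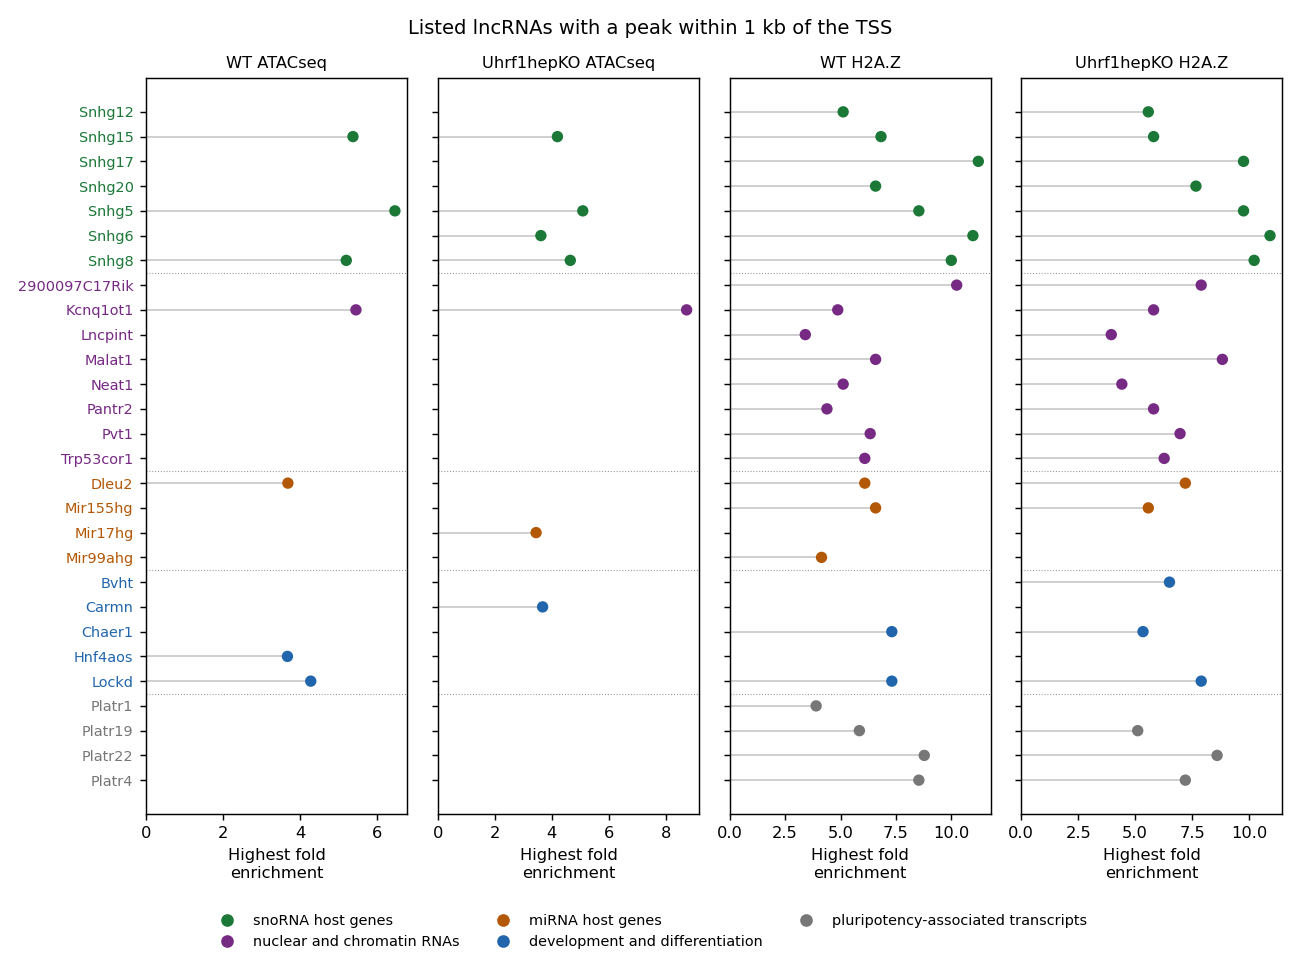
Highest fold enrichment of a peak within 1 kb of the TSS (x axis) for the 28 listed lncRNAs with a peak (rows, coloured by list) in the 4 peak lists, each panel with its own scale. A row without a point has no peak in that list, and the snoRNA hosts have H2A.Z points in both livers in each row while most rows have no ATACseq point.

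A set of 9 short motifs was counted on both strands in the 301 bases around each ATACseq centre. The letters CCAAT, which NF-Y recognises, were found at 45.6% of the 226 WT peaks at stand-alone lncRNAs, 46.3% of those at coding TSSs and 41.5% of all WT peaks. The ETS letters CCGGAAG were found at 9.73%, 20.8% and 11.8% in the same order, and at 16.2% of the lncRNA peaks at promoters with over 40 CpGs and 2.38% of those with 20 or fewer. The HNF4 letters CAAAGTC were found at 7.96%, 2.57% and 4.91%, and the FOXA letters TGTTTAC at 4.42%, 2.22% and 3.98%. The TATA-box letters TATAAA were found at 8.41%, 3.40% and 6.46%. The E-box letters CACGTG were found at 8.85%, 12.5% and 10.04%, and the CTCF letters AGGGGGC at 9.29%, 15.4% and 11.1%. The YY1 letters AAGATGG were found at 4.42%, 8.07% and 6.21%, and the CRE letters TGACGTC at 3.54%, 7.30% and 4.67%. In WT the intervals of the lncRNA and coding peaks were apart for the ETS and CTCF letters, which were less frequent at the lncRNA peaks, and for the HNF4 letters (5.10 to 12.2% against 2.16 to 3.05%) and the TATA-box letters (5.45 to 12.8% against 2.93 to 3.94%), which were more frequent, and they overlapped for the other 5. In Uhrf1hepKO the lncRNA and coding shares were 6.19% and 3.03% for HNF4, 4.87% and 2.12% for FOXA, 7.52% and 4.09% for the TATA box, 8.85% and 20.9% for ETS, and 7.52% and 15.4% for CTCF. The CRE and E-box letters, whose shares were lower at lncRNA peaks in WT, were close there, at 7.08% and 8.16% and at 12.8% and 13.4%. Around the TSSs of the 6541 lncRNA genes without an ATACseq peak, FOXA letters were found at 4.30%, HNF4 at 4.80% and TATA-box letters at 14.3%, so at the lncRNA peaks FOXA letters were about as frequent as there and TATA-box letters less. By CpGs, FOXA letters were found at 9.52% of the WT lncRNA peaks at promoters with 20 CpGs or fewer and 1.01% of those with over 40. The CpG-poor peak of Kcnq1ot1 held CCAAT 3 times. After the sequences were seen, a longer pattern, part of the sequence that CTCF binds, was added, which reads CCA, any 2 bases, AG, any 2 bases and GGC. It was found once in the printed peak of 2900072N19Rik and once in that of Gm33195. At stand-alone lncRNAs it was found at 14 of 145 WT peaks that a Uhrf1hepKO peak overlapped (9.66%, interval 5.84 to 15.6%) and at 9 of 81 that none did (11.1%, interval 5.96 to 19.8%). At coding TSSs it was found at 4.09% (interval 3.50 to 4.77%) and 3.67% (interval 2.75 to 4.87%) of the peaks. Over all WT peaks it was found at 6.38% and 8.16% in the same order, inside the intervals of the lncRNA peaks. In WT this longer pattern was thus found at a larger share of lncRNA than of coding peaks, while the shorter CTCF letters AGGGGGC were less frequent. The printed peaks with a match are among those counted, so the comparison is not independent of them. A match is a string of letters and was not taken as a bound site.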

How the data were processed

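The authors aligned the reads to GRCm38 with BWA-MEM, cleaned them with PICARD and ran MACS2 on every library by itself, for ATACseq in broad mode. The MACS2 version, its mode for H2A.Z and any control library are not given in the sources used here. Each deposited peak has a display score, a fold enrichment (a ratio to the local background), −log10 p- and q-values and, for H2A.Z, the offset of the summit. Folds are not scaled between libraries and were read within lists, so a deeper library may yield more calls. Peaks with at least 1 bp within 1 kb of the TSS were counted, and Wilson 95% intervals were computed. CpGs were counted within 500 bp of the TSS. Sequence is from the RefSeq genome of GRCm38, in which masked repeats are in lower case, and 32-mers found more than once on the chromosomes were called recurring. ATACseq positions are peak centres and H2A.Z positions are summits. 0 columns of per-sample values were left unused.

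The lncRNA genes, gene lists and features were chosen with earlier results of these data known. Named are the listed lncRNAs with a peak, the 6 highest WT ATACseq folds with peaks in all 4 lists (1 of them is not reported here), the 4 highest folds of peaks in 1 liver for each assay and genotype, the 4 highest WT H2A.Z folds without ATACseq, and the 4 with most H2A.Z peaks. Window, overlap, fold, peak number, distance and shared windows were varied 1 at a time. The steps were tested on simulated data, in which 200 of 200 planted genes were found. Python 3.11.15, numpy 2.4.6, pandas 2.3.3 and scipy 1.17.1 were used.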

Additional observations from a re-analysis of the deposited data

How the results depend on the processing

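Each condition has 1 liver and 1 library, so the spread between mice is unknown, and no difference between the livers was tested. Of the 81 values recomputed under another setting, 65 stayed within the interval of the reported share or within 1.5 times the reported count. A window of 500 bp on either side of the TSS gave a share with a peak of 2.81% in WT ATACseq, 2.80% in Uhrf1hepKO ATACseq, 8.35% in WT H2A.Z and 7.93% in Uhrf1hepKO H2A.Z, and a window of 2 kb gave 4.34%, 4.15%, 13.0% and 12.3%. When peaks below the median fold of a list were left out, the shares were 1.71%, 1.79%, 7.38% and 6.68%, peaks in all 4 lists were found at 0.875% of promoters, and 39 promoters had an ATACseq peak in WT only and 45 in Uhrf1hepKO only. These 3 settings change the sequence searched or the number of peaks. Where every coding transcript had to start more than 5 kb away, 1.44% had peaks in all 4 lists, and the cause was not tested. With the same number of peaks from both livers, H2A.Z was called at 98 promoters in WT only and 109 in Uhrf1hepKO only, so which of these counts is larger depends on the number of peaks in the lists. Leaving out peaks with over 50% recurring 32-mers, an alternative chosen after seeing the data, moved the WT ATACseq share to 3.22%. No paired analysis was possible because the labels give no replicate numbers and each group has 1 library.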

Other observations

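On the X chromosome, which was left out of the rule, 138 lncRNA genes of the same types lie more than 5 kb from a coding TSS. Of these, 4 had an ATACseq peak in WT, 3 in Uhrf1hepKO, 13 an H2A.Z peak in WT (9.42%) and 15 in Uhrf1hepKO (10.9%), close to the autosomal shares. Peaks in all 4 lists were found at Gm6787, Gm15261 and Gm15247. Firre, a nuclear RNA with a repeating domain, had an ATACseq peak in WT alone, with a fold of 3.88, and H2A.Z folds of 5.85 and 6.27 in WT and Uhrf1hepKO. Jpx, a neighbour of the X inactivation centre transcript, had H2A.Z folds of 4.14 and 4.18. The 551 such genes of the Y chromosome had 0 peaks.

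Of other noncoding types on chromosomes 1 to 19 at the same distance, the 2732 genes marked TEC, which await experimental support, had a WT ATACseq peak at 1.54% and a WT H2A.Z peak at 4.28%. The 276 sense_intronic genes had 0 WT ATACseq peaks and 9 WT H2A.Z peaks (3.26%).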
